A study of Aspergillus nidulans with 4 samples.

Results

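Of 10930 *Aspergillus nidulans* genes measured by RNA-seq, 66 were taken as genes of purine and pyrimidine metabolism. They were chosen by the words of their function text, which had to name purine, pyrimidine, uracil, xanthine, urate, adenylosuccinate or allantoin and could mention neither tRNA nor amino acids. The rule uses no expression value, but it was set with earlier results of these data known. The letters of "urate" also occur in "unsaturated", and the 7 genes found only in that way act on sugars and were set apart. By role, 31 of the 66 genes were assigned to biosynthesis and salvage, with 12 assigned to the *de novo* pathway of purines, 10 to that of pyrimidines and 9 to salvage. A further 20 belong to catabolism or uptake, with 10 enzymes or regulators of breakdown and 10 transporters. The remaining 15 are genes of DNA repair, RNA modification, riboflavin synthesis, redox metabolism or unclear role whose text happens to use one of the words.

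RNA was sequenced from mycelium of the Δ*pkaA* strain (FGSC A1358), in which the gene of the catalytic subunit of cAMP-dependent protein kinase (PKA) is deleted, and of the parent it was made from, FGSC A1405, called WT. Both strains were grown in YGV, a rich liquid medium that holds 0.5% yeast extract and 2% glucose, in a main culture of about 20 h at 28°C with shaking at 250 rpm. It was started from a seed culture, of 12 h at pH 3.3 by the sample records. The paper gives a slightly longer and less acidic seed culture. There were 2 samples per strain, 4 in all, described as biological replicates. Each strain is a single strain, and no source used here gives the marker alleles it carries.

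The values are mean normalized counts, that is, the reads of a gene corrected for library size and averaged within a strain. Summed over all genes they come to 29312151 in Δ*pkaA* and 31012501 in WT. Only strain means were deposited, but they move in steps from which the reads of each library were recovered where the mean did not exceed 1501 for Δ*pkaA* or 3942 for WT. This gave values of all 4 libraries for 25 of the 66 genes, of the WT libraries alone for 21, of the Δ*pkaA* libraries alone for 1 and of neither strain for 19. The libraries are called a and b, since nothing ties them to the labelled replicates. As a check of the labels, *pkaA* (AN6305) had 77.5 and 70.2 normalized counts in the Δ*pkaA* libraries, against 1811 and 1927 in the WT libraries, and was 25.3-fold lower in Δ*pkaA*. Markers of conidiophore development went in different directions. *abaA* (134 in Δ*pkaA* against 951 in WT) and AN8209, a polyketide synthase of the spore pigment (140 against 339), had lower means in Δ*pkaA*, *wetA* (94.1 against 54.8) and *yA* (208 against 120) higher ones, and *brlA* nearly equal ones (69.5 against 67.2). The 5 summed to between 623 and 669 in the Δ*pkaA* libraries and between 1284 and 1781 in the WT libraries, mostly through *abaA*. None of the 5 was at 0, and the part of developmental state in the results was not tested.

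Cells make purine nucleotides *de novo* by building the ring on ribose phosphate up to IMP, from which AMP and GMP branch, and make pyrimidines by closing the ring as orotate before ribose phosphate is added. Free bases and nucleosides from the medium or from RNA turnover are reused by salvage enzymes. *A. nidulans* is a classical model for the opposite direction, in which purines are taken up and broken down through xanthine, uric acid and allantoin to ammonium as a source of nitrogen, and yeast extract is rich in nucleic acid bases.

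A gene was counted as higher or lower when the strain means differed at least 2-fold and averaged at least 10, which all 66 genes did. By this count 9 genes were higher in Δ*pkaA*, 16 were lower and 41 lay within 2-fold. Over all 9455 genes with such an average, 16.3% were higher and 16.4% lower, against 13.6% higher and 24.2% lower among the 66 genes. The roles differed more than the whole. Of the 20 catabolism or uptake genes, 7 were higher, 9 were lower and 4 lay within 2-fold, whereas of the 31 biosynthesis and salvage genes 1 was higher, 6 were lower and 24 lay within 2-fold. The median log2 ratio, Δ*pkaA* over WT, was -1.56 for catabolism, 1.34 for uptake, -0.34 for purine synthesis, -0.34 for pyrimidine synthesis and 0.08 for salvage, against -0.00063 for all genes. These are descriptions of strain means and carry no test.

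**Figure D1:**
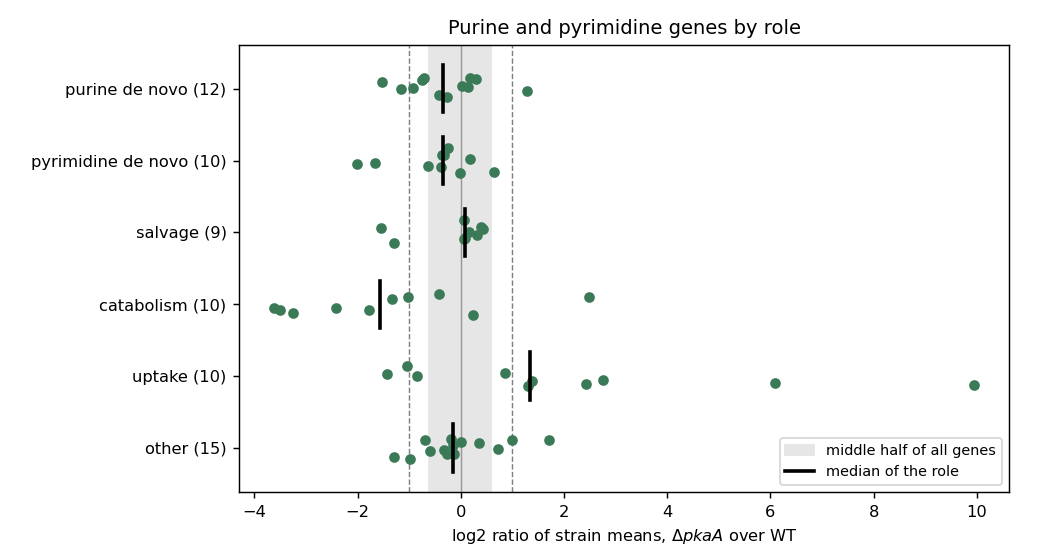
Log2 ratio of the strain means, Δ*pkaA* over WT, for the 66 genes by role (number of genes in brackets). Each point is a gene, the black bar is the median of the role, dashed lines mark 2-fold and the grey band holds the middle 50% of all genes with an average of at least 10. Catabolism genes lie mostly left of the band and uptake genes mostly right of it, with medians of -1.56 and 1.34, and the other roles lie around it.

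A test was possible for the 25 genes with values of all 4 libraries. limma with Benjamini-Hochberg adjustment over the 5368 genes of the transcriptome that met the same condition called 7 of the 25 higher and 8 lower, at an adjusted p below 0.05. Over the 5368 genes, 30.4% were called higher and 34.4% lower. Because the limit on recovered means was lower in Δ*pkaA*, genes lower there were tested more often, and the balance of higher and lower calls is not read. Where a library was left out, the strain had 1 library left, which the fit takes to vary like those of the other strain, so a call can be lost with the fold change hardly moved. For genes above the limits the ratio has no replicate error of its own. Between libraries of the same strain, the log2 ratio of the 2 libraries had a standard deviation of 0.18 for means of 800 to 1500 in Δ*pkaA* against 0.23 for means of 1500 to 3900 in WT. If genes of higher mean varied alike, the standard error of a log2 ratio of strain means would be near 0.15.

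The genes that break down purines were lower in Δ*pkaA* over most of the pathway. The 10 catabolism genes are 7 enzymes of purine breakdown, the regulator of that pathway and a pair of genes of pyrimidine breakdown. Together the 10 had summed means of 24972 in Δ*pkaA* against 156077 in WT, a ratio of 0.160. They made up 0.0852% of all normalized counts in Δ*pkaA* against 0.503% in WT. *hxA* (AN5613), the xanthine dehydrogenase that oxidizes hypoxanthine and xanthine to uric acid, had a mean of 3129 in Δ*pkaA* against 35215 in WT and was 11.3-fold lower. AN10081, an alpha-ketoglutarate-dependent dioxygenase that also turns xanthine into uric acid, had a mean of 1600.1 in Δ*pkaA* against 19597 in WT and was 12.2-fold lower. Both routes from xanthine to uric acid thus had log2 ratios close to each other, -3.49 for the dehydrogenase and -3.61 for the dioxygenase.

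AN9470, the urate oxidase that opens the breakdown of uric acid, had a mean of 7127 in Δ*pkaA* against 67412 in WT and was 9.46-fold lower. Per kilobase of gene span it had the highest level of the 10 catabolism genes in both strains, with 6335 in Δ*pkaA* against 59922 in WT. The enzyme that takes up its product, the 5-hydroxyisourate hydrolase AN2910, had 1378 and 1173 normalized counts in the Δ*pkaA* libraries, against a mean of 6784 in WT. It was 5.32-fold lower in Δ*pkaA*, where its libraries differed by far less than the strains did.

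The enzymes acting from allantoin on differed less between the strains than those above. AN4603, the allantoinase that opens the ring of allantoin, had a mean of 4602 in Δ*pkaA* against 15828 in WT and was 3.44-fold lower. AN3104, the allantoicase that splits allantoate, had a mean of 2824 in Δ*pkaA* against 7092 in WT and was 2.51-fold lower. AN1480, a ureidoglycolate hydrolase that acts on the product of allantoicase, was near the same level in both strains, with a mean of 1661 in Δ*pkaA* against 1465 and 1365 normalized counts in the WT libraries, a log2 ratio of 0.23. Among these enzymes the log2 ratio thus lay between -3.61 and -3.24 for the steps up to uric acid oxidation. It was -2.41 for the 5-hydroxyisourate hydrolase and between -1.78 and 0.23 from allantoinase on. AN0070, described below, also acts before allantoin and had a log2 ratio of -1.28, so the change did not shrink evenly along the pathway. Without AN0070, the 7 enzymes from xanthine to ureidoglycolate had summed means of 22220.1 in Δ*pkaA* against 153342 in WT, a ratio of 0.145.

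Steps before and beside these are held by genes whose text uses none of the words but names a related activity, taken from a list of 37 related genes. AN6078, the adenine deaminase that makes hypoxanthine from adenine, had the lowest ratio of the 37, with a mean of 2482 in Δ*pkaA* against 76825 in WT, 31.0-fold lower. Its function text names a role in nucleotide salvage, so its place before the degradation enzymes rests on the reaction alone. AN10903, whose orthologs are guanine deaminases that make xanthine from guanine, had a mean of 1767 in Δ*pkaA* against 21163 in WT and was 12.0-fold lower. AN0070, the OHCU decarboxylase that completes the path from 5-hydroxyisourate to allantoin, had a mean of 1542 in Δ*pkaA*, against 3844 and 3636 normalized counts in the WT libraries, and was 2.43-fold lower. Urease (AN10079), which releases ammonium at the end, had a mean of 9025 in Δ*pkaA* against 14108 in WT, a log2 ratio of -0.64 that lies within 2-fold.

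**Figure D2:**
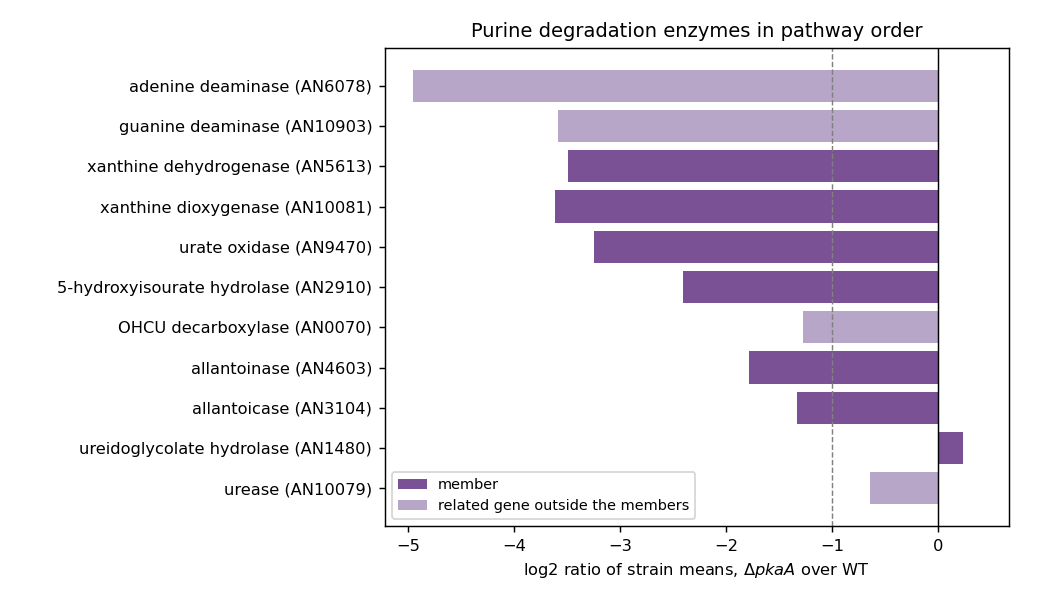
Log2 ratio of the strain means, Δ*pkaA* over WT, for 11 purine degradation enzymes in the textbook order of the pathway, from the deaminases of adenine and guanine at the top to urease at the bottom. Dark bars are genes of the 66, light bars related genes, and the dashed line marks 2-fold lower in Δ*pkaA*. The function text of adenine deaminase names a role in nucleotide salvage. From adenine deaminase to allantoicase the bars lie between -4.95 and -1.28, and the 2 enzymes at the bottom, ureidoglycolate hydrolase at 0.23 and urease at -0.64, lie within 2-fold.

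The regulator of this pathway lay within 2-fold. AN0891, a Zn(2)-Cys(6) transcription factor needed for the induction of purine degradation genes by uric acid, had 1237 and 1583 normalized counts in the Δ*pkaA* libraries, against 1983 and 1780 in the WT libraries. The libraries of the strains did not overlap, and the difference passed the test with a log2 fold change of -0.42 (SE 0.15, adjusted p = 0.0405 by limma). Without Δ*pkaA* library a the log2 fold change was -0.25 (adjusted p = 0.258 by limma) and without WT library a it was -0.35 (adjusted p = 0.0953 by limma), while with no filter on low values the adjusted p was 0.0512.

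Catabolism of pyrimidines is represented by a pair of genes with domains of cyclic amide hydrolases, the type of enzyme that opens reduced pyrimidine rings, and they moved in opposite directions. AN1823 had 954 and 1067 normalized counts in the Δ*pkaA* libraries, against 185 and 178 in the WT libraries. It rose 5.57-fold, with a log2 fold change of 2.47 (SE 0.12, adjusted p = 1.62e-05 by limma). AN8418 had 319 and 343 normalized counts in the Δ*pkaA* libraries, against 867 and 477 in the WT libraries, and fell with a log2 fold change of -0.96 (SE 0.27, adjusted p = 0.0182 by limma). The WT libraries of AN8418 stood far apart, and leaving out WT library a gave a log2 fold change of -0.53, and leaving out WT library b one of -1.39, both still past the test (adjusted p = 0.0106 and 2.54e-05 by limma). Without Δ*pkaA* library a or b the fold change stayed close, at -0.90 and -1.01, but the call was lost (adjusted p = 0.111 and 0.0867 by limma). Its ratio of means, 0.492, is also the one nearest to the 2-fold limit from outside.

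**Figure D3:**
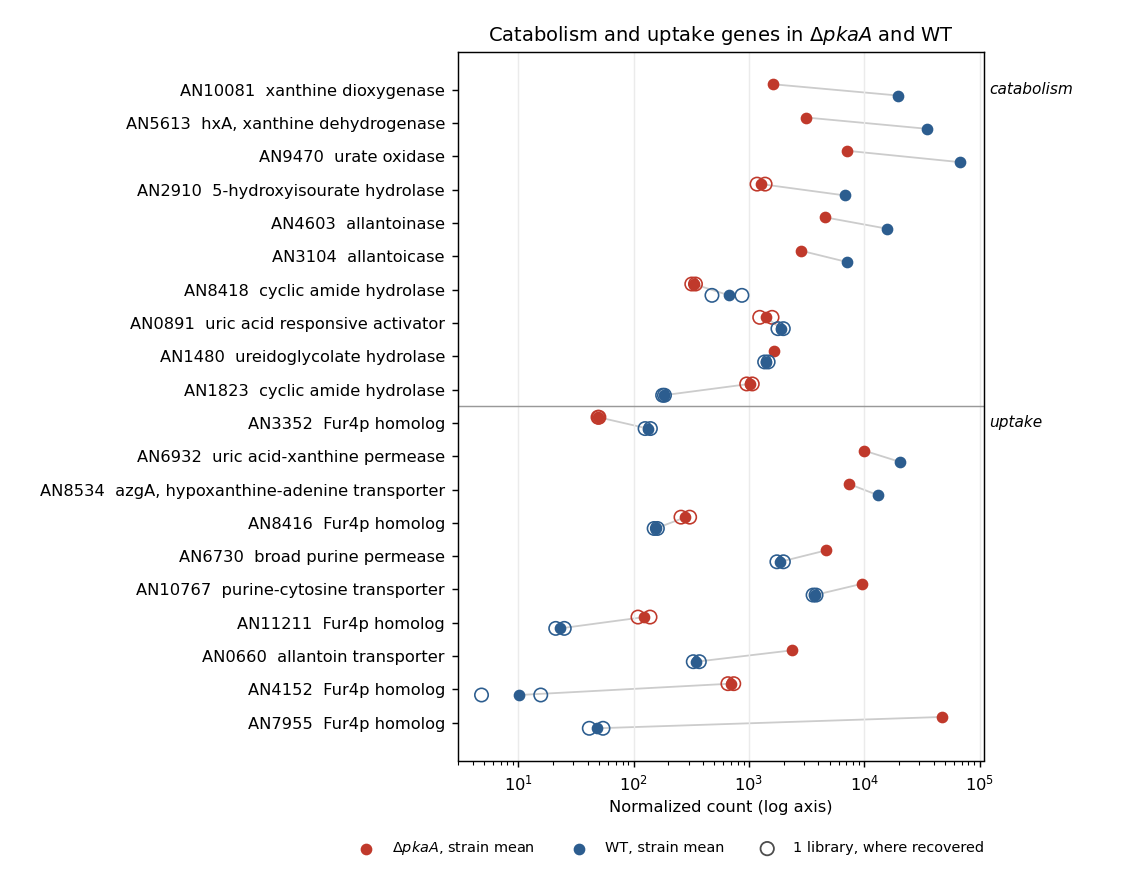
Normalized counts (log axis) of the 10 catabolism and 10 uptake genes. Filled points are strain means, red for Δ*pkaA* and blue for WT, open circles are single libraries where these were recovered, and genes run from the lowest to the highest ratio within each role. The 3 genes at the top, xanthine dioxygenase, *hxA* and urate oxidase, lie between 1600.1 and 7127 for Δ*pkaA* and between 19597 and 67412 for WT, while AN7955 at the bottom lies at 46850 in Δ*pkaA* against 47.7 in WT.

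The transporters did not follow the enzymes as a group. Of 10 uptake genes 6 were higher and 2 lower in Δ*pkaA* by 2-fold or more. That is 60% and 20%, beside 16.3% and 16.4% of all genes. Their summed means were 81757 in Δ*pkaA* against 39723 in WT, but a single gene accounts for most of the sum in Δ*pkaA*. Without AN7955 the sums of the other 9 were 34907 in Δ*pkaA* against 39675 in WT, a ratio of 0.880.

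AN7955 is one of 5 genes described as homologs of Fur4p, the uracil transporter of *Saccharomyces cerevisiae*. Its mean was 46850 in Δ*pkaA*, against 41.2 and 54.1 normalized counts in the WT libraries. The ratio of means was 983-fold, the highest of the 66 genes. The authors list it from base 319246 to base 322147, on the plus strand, with no chromosome name. AN4152, another homolog, had 656 and 737 normalized counts in the Δ*pkaA* libraries, against 4.79 and 15.6 in the WT libraries. It rose with a log2 fold change of 6.15 (SE 0.47, adjusted p = 7.89e-05 by limma), and its WT value rests on 5 and 15 reads.

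The other homologs of Fur4p were expressed at low levels. AN11211 had 109 and 138 normalized counts in the Δ*pkaA* libraries, against 21.1 and 25 in the WT libraries, and rose with a log2 fold change of 2.37 (SE 0.26, adjusted p = 0.000349 by limma). AN8416 had 257 and 305 normalized counts in the Δ*pkaA* libraries, against 150.3 and 160.3 in the WT libraries, and rose with a log2 fold change of 0.85 (SE 0.16, adjusted p = 0.00398 by limma), a change within 2-fold. Without Δ*pkaA* library b its log2 fold change was 0.72 and the call was lost (adjusted p = 0.0539 by limma). AN3352 went the other way, with 49.0 and 49.9 normalized counts in the Δ*pkaA* libraries, against 125 and 140 in the WT libraries, and a log2 fold change of -1.40 (SE 0.21, adjusted p = 0.00131 by limma). Thus 4 of the 5 homologs had a higher mean in Δ*pkaA*, and 1 had a lower one. The 5 genes are related in sequence, and no source used here says how reads that fit more than 1 of them were counted.

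The purine transporters went both ways. The uric acid-xanthine permease AN6932, described as of high capacity and affinity, had a mean of 9899 in Δ*pkaA* against 20322 in WT and was 2.05-fold lower. *azgA* (AN8534), the high-affinity transporter of hypoxanthine and adenine, had a mean of 7306 in Δ*pkaA* against 13117 in WT, 1.80-fold lower and within the limit. The broad-specificity purine permease AN6730 was higher, with a mean of 4626 in Δ*pkaA* against 1744 and 1986 normalized counts in the WT libraries, a ratio of 2.48. The purine-cytosine transporter AN10767 was also higher, with a mean of 9578 in Δ*pkaA* against 3811 and 3591 in the WT libraries, a ratio of 2.59. The part of AN6932 among the lower genes depends on scaling, since its log2 ratio was -0.96 when both strains were scaled to the same sum of means.

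Transporters of the later intermediates were higher while the enzymes that use them were not. AN0660, a putative allantoin transporter, had a mean of 2347 in Δ*pkaA*, against 328 and 371 normalized counts in the WT libraries, and was 6.71-fold higher. AN0811, a putative allantoate transporter among the related genes, had 661 and 792 normalized counts in the Δ*pkaA* libraries, against 17.2 and 14.6 in the WT libraries, and rose with a log2 fold change of 5.43 (SE 0.21, adjusted p = 9.46e-06 by limma). Related transporters of nucleobases and nucleosides were mixed. AN7967, with a predicted nucleobase transporter domain, had 142 and 168 normalized counts in the Δ*pkaA* libraries, against 1280.0 and 1362 in the WT libraries, and fell with a log2 fold change of -3.09 (SE 0.13, adjusted p = 1.16e-05 by limma). AN6783, with the same predicted activity, rose with a log2 fold change of 0.44 (SE 0.10, adjusted p = 0.00878 by limma), and its libraries held 1098 and 1161 normalized counts in Δ*pkaA*, against 819 and 844 in WT.

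Most genes assigned to the *de novo* pathway of purines lay within 2-fold, as did 6365 of the 9455 genes counted in the transcriptome. Of its 12 genes 1 was higher, 2 were lower and 9 lay within the limit. That is 8.33% higher and 16.7% lower, near the 16.4% of all genes that were lower, while 16.3% of all genes were higher. The summed means of the 12 were 50474 in Δ*pkaA* against 69527 in WT, a ratio of 0.726. The lowest was AN2494, a gene with a deaminase domain and a predicted role in the synthesis of purine nucleotides, with a mean of 2944 in Δ*pkaA* against 8447 in WT, 2.87-fold lower. AN5492, with the same description, had 582 and 600 normalized counts in the Δ*pkaA* libraries, against 1103 and 1156 in the WT libraries, and fell with a log2 fold change of -0.93 (SE 0.10, adjusted p = 0.000334 by limma), just inside the 2-fold limit. AN2494 and AN5492 were placed among the 12 by this description, which names no step of the *de novo* pathway. They may belong to another part of purine metabolism. AN8121, a formylglycinamidine synthetase of the path to IMP, had a mean of 4244 in Δ*pkaA* against 9471 in WT and was 2.23-fold lower.

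On the branches from IMP to AMP and GMP, the synthases and IMP dehydrogenases had lower means in Δ*pkaA*, mostly within the limit. The adenylosuccinate lyases, which also act on the AMP branch, had higher ones, given below. Adenylosuccinate synthase (AN0893), on the way to AMP, had a mean of 8615 in Δ*pkaA* against 14031 in WT, a log2 ratio of -0.70. GMP synthase (AN5566) had a mean of 4516 in Δ*pkaA* against 7598 in WT, a log2 ratio of -0.75. IMP dehydrogenase, the entry to the GMP branch, is represented by AN5716, with a log2 ratio of -0.42, and by AN12478 among the related genes, with a mean of 15753 in Δ*pkaA* against 37359 in WT, 2.37-fold lower. At the other end of the pathway, before IMP, is AN10837, whose orthologs are the amidophosphoribosyltransferase that commits ribose phosphate to purine synthesis. Its mean was 6471 in Δ*pkaA* against 12294 in WT, a log2 ratio of -0.93.

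The remaining genes of the ring pathway differed little. The carboxylase AN3626 had a log2 ratio of -0.26, the ligase AN6541 one of 0.02 and the succinocarboxamide synthetase AN4739 one of 0.14. AN4464, described only as a putative bifunctional enzyme of purine metabolism, had one of 0.19. A pair of genes shares the description of adenylosuccinate lyase, which acts both before IMP and on the way to AMP. AN6209 is the more highly expressed, with a mean per kilobase of gene span of 3258 in Δ*pkaA* against 2641 in WT and a log2 ratio of 0.30. AN4011, with means per kilobase of 251 in Δ*pkaA* against 103 in WT, had 396 and 379 normalized counts in the Δ*pkaA* libraries, against 163 and 155 in the WT libraries, and rose with a log2 fold change of 1.28 (SE 0.14, adjusted p = 0.000319 by limma).

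Of the 10 genes of pyrimidine synthesis 2 were at least 2-fold lower in Δ*pkaA* and 8 lay within 2-fold. That is 0% higher and 20% lower, beside 16.3% and 16.4% of all genes. The lowest by ratio, and per kilobase the highest in level in both strains, was AN2243, a putative carbamoyl-phosphate synthase or aspartate carbamoyltransferase with a predicted role in arginine or pyrimidine metabolism. It had a mean of 10528 in Δ*pkaA* against 42240.3 in WT and was 4.01-fold lower. Its RefSeq symbol is *cpa1*, a name that in *S. cerevisiae* belongs to the small subunit of the carbamoyl-phosphate synthase of arginine synthesis, so its place among pyrimidine genes rests on the function text. The large subunit gene AN5999, among the related genes, had a mean of 11775 in Δ*pkaA* against 18701 in WT, a log2 ratio of -0.67. *pyrABCN* (AN0565), the multifunctional enzyme that starts pyrimidine synthesis itself, had a mean of 9980 in Δ*pkaA* against 13039 in WT, a log2 ratio of -0.39. The summed means of the 10 genes had a ratio of 0.450, and those of the 9 genes other than AN2243, 26561 in Δ*pkaA* against 40185 in WT, a ratio of 0.661.

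After *pyrABCN*, dihydroorotase (AN10131) had 153 and 147 normalized counts in the Δ*pkaA* libraries, against 205 and 172 in the WT libraries, a log2 fold change of -0.32 that did not pass the test (SE 0.17, adjusted p = 0.144 by limma). Dihydroorotate dehydrogenase (AN5909), which makes orotate, had a log2 ratio of -0.35, and orotate phosphoribosyltransferase (AN5884), which joins it to ribose phosphate, one of -0.64. The decarboxylation to UMP has a dedicated gene, *pyrG* (AN6157), among the related genes, with a mean of 1898 in Δ*pkaA* against 2591 and 2146 normalized counts in the WT libraries and a log2 ratio of -0.32. No source used here says whether either strain carries an altered *pyrG* allele. AN0919, which has a domain of the same activity, went the other way, with a mean of 2013 in Δ*pkaA* against 1345 and 1236 in the WT libraries, a log2 ratio of 0.64 and the highest of the 10.

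At the end of the pathway, CTP synthase (AN0490), which converts UTP into CTP, had a mean of 4379 in Δ*pkaA* against 13820.1 in WT and was 3.16-fold lower. Genes for the DNA precursors differed little. Thymidylate synthase (AN7028) had a log2 ratio of -0.25 and dUTP pyrophosphatase (AN0271) one of 0.18. For dTMP kinase (AN8213) the libraries of the strains overlapped, with 937 and 840 normalized counts in the Δ*pkaA* libraries, against 987 and 808 in the WT libraries, and a log2 fold change of -0.01 (SE 0.13, adjusted p = 0.958 by limma). The ribonucleotide reductase subunits AN4380 (large, log2 ratio -0.03) and AN0067 (small, log2 ratio 0.39), both related genes, also lay within 2-fold.

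**Figure D4:**
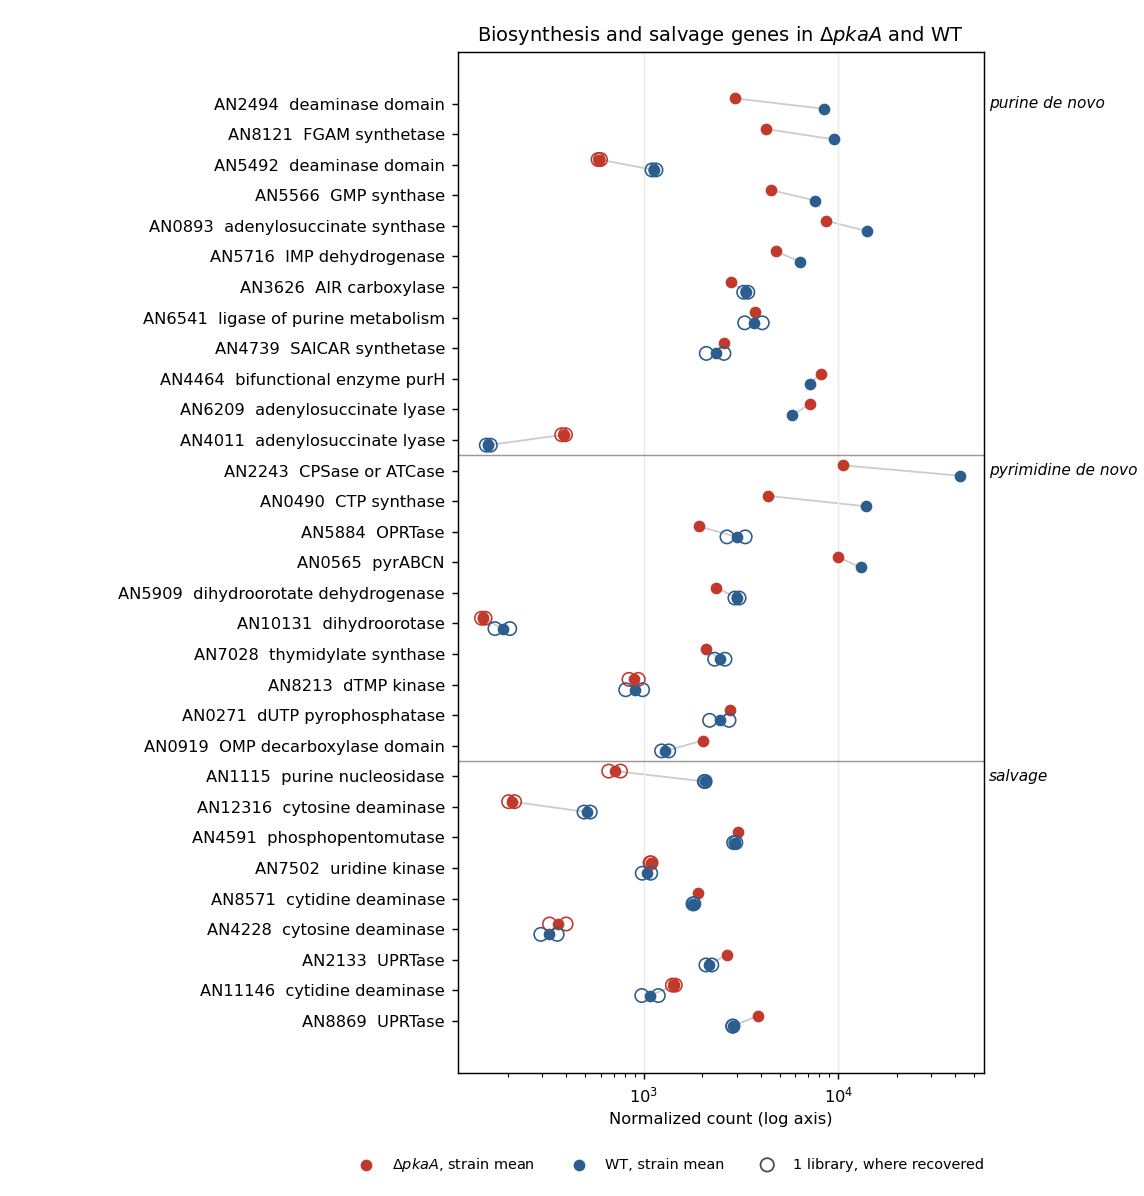
Normalized counts (log axis) of the 31 biosynthesis and salvage genes by pathway. Filled points are strain means, red for Δ*pkaA* and blue for WT, open circles are single libraries where these were recovered, and genes run from the lowest to the highest ratio within each pathway. For 24 of the 31 genes the strain means lie within 2-fold, beside 6365 of the 9455 genes counted in the transcriptome. The widest gap is that of AN2243, at 10528 in Δ*pkaA* against 42240.3 in WT.

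Among the 9 salvage genes, 2 fell and the others lay within 2-fold. That is 0% higher and 22.2% lower, beside 16.3% and 16.4% of all genes. AN1115, a putative purine nucleosidase that frees bases from nucleosides, had 760 and 661 normalized counts in the Δ*pkaA* libraries, against 2070 and 2050.1 in the WT libraries, and fell with a log2 fold change of -1.54 (SE 0.11, adjusted p = 6.57e-05 by limma). AN12316, whose orthologs are cytosine deaminases that make uracil from cytosine, had 202 and 217 normalized counts in the Δ*pkaA* libraries, against 531 and 494 in the WT libraries, and fell with a log2 fold change of -1.29 (SE 0.13, adjusted p = 0.000234 by limma). The libraries of the strains stood clearly apart for both genes. A second putative cytosine deaminase, AN4228, overlapped between the strains, with 399 and 328 normalized counts in the Δ*pkaA* libraries, against 359 and 296 in the WT libraries.

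The salvage enzymes that lead back to UMP and to uridine had slightly higher means in Δ*pkaA*. The uracil phosphoribosyltransferases AN8869 and AN2133, which make UMP from uracil, had log2 ratios of 0.43 and 0.31. Uridine kinase (AN7502) had a log2 fold change of 0.07 (SE 0.11, adjusted p = 0.59 by limma). The cytidine deaminase AN11146 had 1453 and 1404.96 normalized counts in the Δ*pkaA* libraries, against 977 and 1189 in the WT libraries, and rose with a log2 fold change of 0.41 (SE 0.13, adjusted p = 0.0282 by limma). Without Δ*pkaA* library a or b its log2 fold change stayed close, at 0.38 and 0.43, but the call was lost (adjusted p = 0.142 and 0.111 by limma), as it was without WT library a, with a log2 fold change of 0.26 (adjusted p = 0.103). Of the purine salvage genes in the related list, the adenine phosphoribosyltransferase AN9083, which makes AMP from adenine, had a mean of 3842 in Δ*pkaA* against 7411 in WT, a log2 ratio of -0.95. AN6993, a putative phosphoribosyltransferase, had a mean of 2612 in Δ*pkaA* against 7440 in WT and was 2.85-fold lower. AN3222, whose orthologs are nucleotidases that turn IMP into inosine, had a mean of 1729 in Δ*pkaA* against 14853 in WT and was 8.59-fold lower. Other related genes whose text names nucleotide salvage went both ways. The adenylate kinase AN0259, given below, was 2.74-fold higher, and the adenine deaminase AN6078 was 31.0-fold lower. The adenosine deaminase AN0662 had a log2 ratio of -0.56 and the ribonucleotide reductase AN4380 one of -0.03.

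Across the 37 related genes, 3 were at least 2-fold higher, 10 at least 2-fold lower and 24 within 2-fold, beside 16.3% and 16.4% of all genes. Of the 12 with values of all 4 libraries, limma called 3 higher and 7 lower, beside 30.4% and 34.4% of the 5368 genes tested. The balance of these calls is not read either, since genes lower in Δ*pkaA* were tested more often. The other genes past 2-fold were the adenylate kinase AN0259, which was 2.74-fold higher with a mean of 1734 in Δ*pkaA* against 654 and 613 normalized counts in the WT libraries, AN11124, with a predicted role in dUTP metabolism (log2 fold change 1.18, SE 0.20, adjusted p = 0.00245 by limma), AN12221, with a predicted deoxyribose-phosphate aldolase domain and a log2 ratio of -1.55, AN5680, with an exonuclease domain (log2 fold change -1.51, SE 0.20, adjusted p = 0.000784 by limma), and AN10683, whose orthologs are nucleoside symporters (log2 fold change -1.14, SE 0.13, adjusted p = 0.000349 by limma).

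Of the 15 genes of other roles, 1 was higher, 1 was lower and 13 lay within 2-fold. That is 6.67% in each direction, beside 16.3% higher and 16.4% lower of all genes. AN6548, whose orthologs respond to purine-containing compounds, had 904 and 867 normalized counts in the Δ*pkaA* libraries, against 290.1 and 254 in the WT libraries, and rose with a log2 fold change of 1.70 (SE 0.12, adjusted p = 5.98e-05 by limma). AN4272, whose orthologs act in nucleotide-excision repair of pyrimidine dimers, had a mean of 2715 in Δ*pkaA* against 6688 in WT and was 2.46-fold lower. The pair nearest to the 2-fold limit from inside was thioredoxin reductase (AN3581), which supplies electrons to ribonucleotide reductase through thioredoxin and had a ratio of 1.98, and AN6325, whose orthologs are pyrimidine nucleotidases, with a ratio of 0.505. Per kilobase AN3581 had the highest level of the 66 genes in Δ*pkaA*, and its mean was 61805 in Δ*pkaA* against 31170.3 in WT. Among the rest, the pseudouridylate synthase AN3170 fell with a log2 fold change of -0.59 (SE 0.15, adjusted p = 0.0142 by limma) and the riboflavin pathway gene AN6979 fell with one of -0.32 (SE 0.12, adjusted p = 0.0497 by limma). Without Δ*pkaA* library a or b the log2 fold change of AN3170 stayed close, at -0.54 and -0.64, but the call was lost (adjusted p = 0.0954 and 0.0629 by limma). That of AN6979 was -0.26 without Δ*pkaA* library a, -0.37 without Δ*pkaA* library b and -0.22 without WT library a, and the call was lost each time (adjusted p = 0.221, 0.116 and 0.167 by limma).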

How the data were processed

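RNA-seq libraries of 2 samples of each strain were made with an Illumina kit that does not mark strand. The authors aligned 100-base reads to the AspGD genome with bowtie2, counted with HTSeq and compared strains with DESeq (versions and genome release not given in the sources used here). Deposited by the authors was a signal, the mean normalized count per gene and strain. Their fold change, with the WT on top, p-values and q-values were not used, nor was a second table of genes selected in another comparison.

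Each mean was solved for whole reads of 2 libraries, to a tolerance of 6e-05, with size factors of 1.02 and 0.982 (Δ*pkaA*) and 1.04 and 0.960 (WT) found from the means. Where several solutions existed the most even was taken; of the 25 genes fitted, 17 had 1 solution. In simulated means, 100% of 6378 (Δ*pkaA*) and 99.85% of 8710 (WT) came back right. limma was run with a mean-variance trend on log2(normalized count + 1). For low genes its log2 fold changes can differ from the log2 ratio of means either way. They were 2.37 against 2.42 for AN11211 and 6.15 against 6.09 for AN4152. On simulated data for these 5368 genes it called 90 of 102 genes changed 2-fold and 97 of 98 changed 4-fold, with 6 false calls. The simulation gave all libraries the same fixed spread and changed few genes. In the data the log2 library ratio at means of 200 to 800 had a standard deviation of 0.20 in Δ*pkaA* but 0.34 in WT. At means of 50 to 200 it was 0.31 and 0.47. The simulated counts therefore do not give the error rates of the real calls. P-values cover only the spread between these samples.

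The members and lists were chosen with earlier results of these data known. Roles were assigned from the function text, and 5-hydroxyisourate hydrolase, found through the letters of urate, was kept. Named were *pkaA*, all catabolism and uptake genes, all members past 2-fold, those nearest the limit, the 5 highest and lowest biosynthesis genes and the 5 highest and lowest related genes past 2-fold with an average of at least 100; other genes were named after their values were seen. Symbols came from RefSeq (ASM1142v1, 64 of 66 members matched, 8 with a symbol) or the paper. Alternatives were fold limits of 1.5 and 4, averages of 0 and 100, pseudocounts, 3 scalings and leaving out each library. Software was limma 3.58.1 in R 4.3.3, and pandas 2.3.3, NumPy 2.4.6 and matplotlib 3.10.9 in Python 3.11.15.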

Additional observations from a re-analysis of the deposited data

How the results depend on the processing

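Recomputed under the alternatives were the catabolism and uptake genes, the other members past 2-fold and the 5 highest and 5 lowest biosynthesis and salvage genes. None changed direction. For the strain means this was bound to be so, since pseudocounts cannot reverse a ratio and the scalings moved these ratios too little. Members nearer to equal means, such as AN8213 with a log2 ratio of -0.01, were not recomputed. With a fold limit of 4, 5 members were higher and 5 lower, of biosynthesis and salvage 0 and 1, 4 of the catabolism or uptake genes were lower, and of the related genes 1 was higher and 4 lower. With a limit of 1.5, biosynthesis and salvage had 2 higher and 10 lower, and the related genes 5 and 18. Shares of all genes are given at the main settings only, so the counts under the alternatives have no background beside them. Scaling both strains to the same sum of means shifted the median log2 ratio of genes averaging 100 or more to 0.10 and left 14 members lower and 10 higher. Of the genes tested with limma, leaving out 1 library at a time left 5 to 7 higher and 4 to 8 lower, the fewest lower without Δ*pkaA* library a (4) or b (5), and with only the 17 genes of a single whole-read solution, an alternative chosen after seeing the data, 4 were higher. No paired analysis was possible because it is unknown which recovered library bears which replicate number. Tests with edgeR and DESeq2 were not run, since too few values at high means came out as whole reads. Depth limits AN4152 and AN11211, whose log2 ratios were 5.13 and 2.02 with a pseudocount of 10, and genes above the recovery limits have no replicate error.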

Other observations

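Genes beside members on the chromosome, by the gene order of RefSeq, gave further values. They were looked up after the values of the members had been seen, and are given with no test. AN7954, next to the Fur4p homolog AN7955, has no described function beyond an intracellular location of its orthologs, and had a mean of 26924 in Δ*pkaA* against 10.4 in WT, a log2 ratio of 11.33. AN7956, on the other side, had a mean of 11.05 in Δ*pkaA* and is listed at 0 in WT. AN1822, with an oxidoreductase domain, lies beside the cyclic amide hydrolase AN1823 and had a mean of 645 in Δ*pkaA* against 120 in WT, a log2 ratio of 2.43. AN11219, with a ligase domain, lies beside the Fur4p homolog AN11211 and had a mean of 956 in Δ*pkaA* against 97.8 in WT, a log2 ratio of 3.29. AN10098, a putative oxidoreductase, lies beside the xanthine dioxygenase AN10081 and had a mean of 97.4 in Δ*pkaA* against 701 in WT, a log2 ratio of -2.85, while AN0489, on the other side, went against the member with a mean of 51.5 in Δ*pkaA* against 9.12 in WT, a log2 ratio of 2.50. The nearest genes did not all go with the members. AN4151, beside AN4152, had a log2 ratio of -0.14, AN1824, on the other side of AN1823, one of 0.26, AN9469, beside urate oxidase, one of -0.01, and AN0661, beside the allantoin transporter AN0660, one of -2.57.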
